A study of Homo sapiens with 6 samples.

Results

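The genes described here are the ion channel genes of 2 human glioblastoma cell lines: potassium (KCN), voltage-gated sodium (SCN), voltage-gated calcium (CACN), chloride (CLCN and CLIC) and transient receptor potential (TRPC, TRPM and TRPV) channels. They were chosen by gene symbol, with earlier results of these data known. Only probe sets with 1 annotated gene were used, and where a gene had several the brightest on average stands for it. The rule found 126 genes on 190 probe sets, of 11963 genes in all. Of the 126, 63 encode potassium channel subunits, 11 sodium, 21 calcium, 6 CLCN, 5 CLIC and 15 TRP subunits. The other 5 were matched by symbol but are no channel subunits: the pseudogenes CLIC1P1 and TRPC2, the non-coding transcripts KCNQ1OT1 and KCNQ1DN, and TRPC4AP, an adaptor protein named for its binding to a TRPC channel. Another 5 probe sets that list several genes, a channel gene among them, were not used.

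U87MG and T98G are established lines grown in DMEM with fetal bovine serum, and the labels name no treatment, genotype or drug exposure for any array. Total RNA of each line was hybridised to 3 Affymetrix arrays. Per the labels, U87MG resists apoptosis by the proteasome inhibitor bortezomib and the isopeptidase inhibitor G5 but undergoes necrosis with G5, while T98G undergoes apoptosis with both and partly resists that necrosis. Each line stands for itself only, and the labels do not say whether the arrays of a line came from separate cultures. The p-values therefore cover the spread between these arrays, which may be technical. In bulk cultures, fewer cells with a transcript and less RNA per cell cannot be told apart. Values are log2 expression values, and every difference is U87MG minus T98G.

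Ion channels let selected ions cross membranes down their gradients. Potassium channels hold the resting potential, sodium and calcium channels open on depolarisation, and calcium entry also drives signalling and secretion. In glioma cells, chloride and potassium channels are known for moving salt and water during changes of cell volume, shape and migration.

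The channel genes called between the lines came from the potassium, calcium, CLCN, CLIC and TRP families. A call needed a difference of at least 2-fold and a limma p, adjusted by Benjamini-Hochberg over all 11963 genes, under 0.05. By that rule 10 of 126 channel genes (7.94%) were called, against 13.6% of all genes. CACNA1A, KCNS3, CLCN3, TRPV2, KCNAB1 and TRPC4 were higher in U87MG (6 genes, 4.76%, against 6.56% of all genes), and KCNJ2, KCNE4, CLIC2 and KCNK1 were lower (4 genes, 3.17%, against 7.01%). Without a minimum fold, 28 channel genes (22.2%) had an adjusted p under 0.05, against 41.3% of all genes. The 3 arrays of U87MG and the 3 of T98G did not overlap for 40 channel genes (31.7%), against 52.0% of all genes. The median size of the difference was 0.12 on the log2 scale for the channel genes and 0.26 for all genes, with median residual SDs of 0.15 in both.

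**Figure D1:**
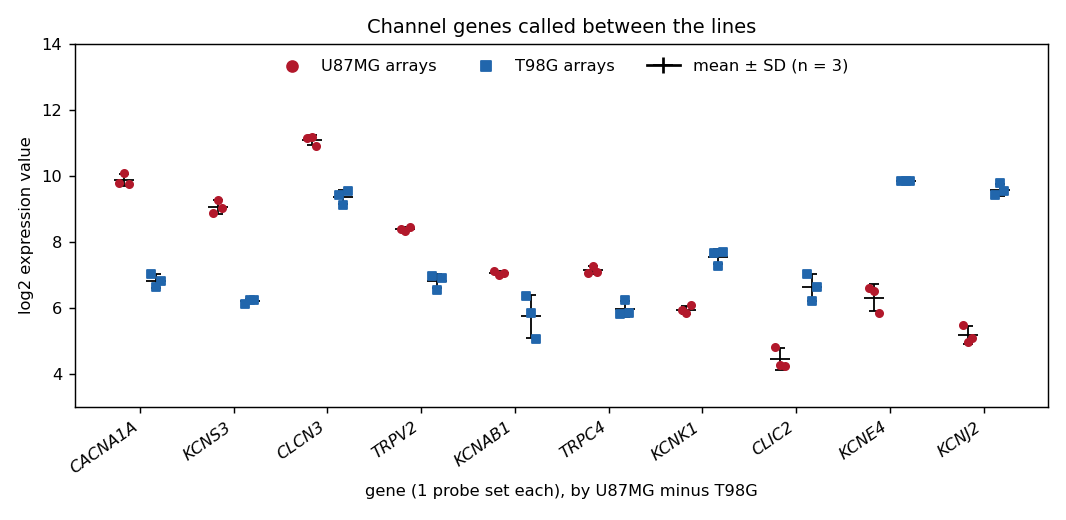
Log2 expression values (vertical axis) of the 10 called channel genes on each of 3 U87MG arrays (red circles) and 3 T98G arrays (blue squares), with the mean and SD in black. The arrays of the lines do not overlap for any of the 10 genes; the widest gap is that of KCNJ2 and the widest spread within a line is that of KCNAB1 in T98G.

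Most channel probe sets were dim. In both lines 103 of the 126 genes had means under 7.63, the median of all probe sets, as had 4753 of the 11963 genes (39.7%). Of the 23 channel genes over that median in a line, 6 were called (26.1%), against 18.8% of the 7210 genes over it, so the order of the shares was the reverse of that over all 126. These shares are a description only, since a gene can be over the median through the line in which it is higher. For 10 channel genes, 5 of them sodium channel genes, both means were under 4.03, the highest reading of 3 probe sets for a bacterial gene, which human RNA should not bind. Detection calls were not used here, and the array processing compresses differences of dim transcripts, so a small difference at the bottom of the scale does not show equal transcript levels. Signals of different probe sets are not compared as amounts of transcript.

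Of 10 glioma and glial markers, NES and SLC1A3 were higher in U87MG, SOX9 was lower and 7 were not called. VIM (vimentin) read 14.85 in U87MG and 14.59 in T98G, and CD44 read 13.68 and 13.93 in the same order. The glial markers GFAP, S100B, OLIG2 and AQP4 were dim, at 4.23 to 6.52 in U87MG and 4.13 to 6.42 in T98G. Of 3 neuronal markers, SNAP25 alone was called, higher in U87MG (9.61 ± 0.18 against 8.01 ± 0.26, SD, n = 3 arrays per line). SYT1 read 6.22 in U87MG and 5.22 in T98G, and its log2 difference of 0.9998 was just under the 2-fold minimum. STMN2 had -0.25. None of 13 markers of blood, endothelium, epithelium or muscle was called, and they ranged from 3.95 to 7.16 in U87MG and from 4.03 to 7.34 in T98G. Poly-A control transcripts averaged 5.30 on U87MG replicate 3 and 6.10 to 6.84 on the other 5 arrays. Whether the neuronal markers or these controls bear on the channel results was not tested. Without that array 6 channel genes were higher and 4 lower, as with it.

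KCNJ2 had the largest difference of all the channel genes. It encodes an inward rectifier potassium channel that holds the resting potential near the potassium equilibrium in many cells. KCNJ2 read 5.49, 4.97 and 5.10 on the U87MG arrays, against 9.42, 9.78 and 9.54 on the T98G arrays. Every T98G array stood far above every U87MG array, and KCNJ2 was 21.0-fold lower in U87MG (log2 -4.39, SE 0.16, limma adjusted p = 2.68e-08). KCNJ2 was the only one of 12 inward rectifier genes called (8.33%, against 13.6% of all genes). Of the other 11, 2 were higher and 1 was lower at an adjusted p under 0.05 but short of 2-fold. Of all 12, 33.3% had an adjusted p under 0.05, against 41.3% of all genes. KCNJ16, the chromosomal neighbour of KCNJ2, read 4.07 ± 0.05 in U87MG and 4.0 ± 0.16 in T98G.

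The inward rectifier gene KCNJ15 depended on the probe set. Its brighter probe set had a log2 difference of 0.56 (95% interval 0.28 to 0.84) and was not called. The other read 6.19, 6.46 and 5.82 in U87MG and 4.20, 4.56 and 3.80 in T98G, and in a fit of all probe sets singly it was called higher (log2 1.97, limma adjusted p = 9.25e-05). One T98G array was under the control reading of 4.03, so the fold is given as at least 3.71. The log2 difference of this probe set had a 95% interval of 1.48 to 2.45. KCNJ8, which encodes a pore subunit of ATP-sensitive potassium channels, had a difference of 0.39 (0.12 to 0.66).

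Among 25 voltage-gated potassium pore subunit genes, KCNS3 was the only one called (4.0%, against 13.6% of all genes). Its product forms no channel alone and modifies the gating of other voltage-gated subunits when it joins them. KCNS3 read 8.88, 9.29 and 9.02 on the U87MG arrays, against 6.12, 6.24 and 6.24 on the T98G arrays. It was 7.27-fold higher in U87MG, with no overlap between the lines (log2 2.86, SE 0.12, limma adjusted p = 8.49e-08). Short of 2-fold, KCNC4 and KCNQ3 were higher and KCND1 and KCNG1 lower at an adjusted p under 0.05. KCNC4 had 0.74 (0.52 to 0.96), and KCND1, which carries rapidly inactivating current, had -0.75 (-1.14 to -0.36). These are among the 3 uncalled genes nearest to the 2-fold minimum, and the called gene nearest to it from above was TRPC4. The remaining 20 genes of the class had an adjusted p of at least 0.05, among them KCNQ1 at 7.75 ± 0.05 in U87MG and 7.68 ± 0.04 in T98G.

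Of 9 auxiliary potassium channel subunit genes, 1 was higher and 1 lower (22.2% called, against 13.6% of all genes). KCNE4 encodes a small membrane protein that inhibits several voltage-gated potassium channels, the KCNQ1 channel included. KCNE4 read 6.59, 6.50 and 5.85 in U87MG, against 9.86, 9.84 and 9.83 in T98G. The T98G arrays were nearly the same (SD 0.015) while U87MG replicate 3 was lower than the other U87MG arrays, and KCNE4 was 11.6-fold lower in U87MG (log2 -3.53, SE 0.18, limma adjusted p = 2.59e-07). KCNAB1 encodes a cytoplasmic beta subunit, related to aldo-keto reductases, that speeds inactivation of voltage-gated potassium channels. It read 7.13, 7.0 and 7.07 in U87MG, against 6.35, 5.83 and 5.06 in T98G. The lines did not overlap, but the T98G arrays spread over more than a log2 unit, and the call rests on this 1 of 4 probe sets (log2 1.32, SE 0.26, limma adjusted p = 0.00268). The other 3 had log2 -0.04, 0.07 and 0.90, the mean of all 4 gave 0.56, and leaving out T98G replicate 3 gave 0.98, under the 2-fold minimum. KCNAB2, another beta subunit gene, had -0.72 (-1.09 to -0.35) on 1 probe set and -0.19 (-0.53 to 0.16) on the other.

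**Figure D2:**
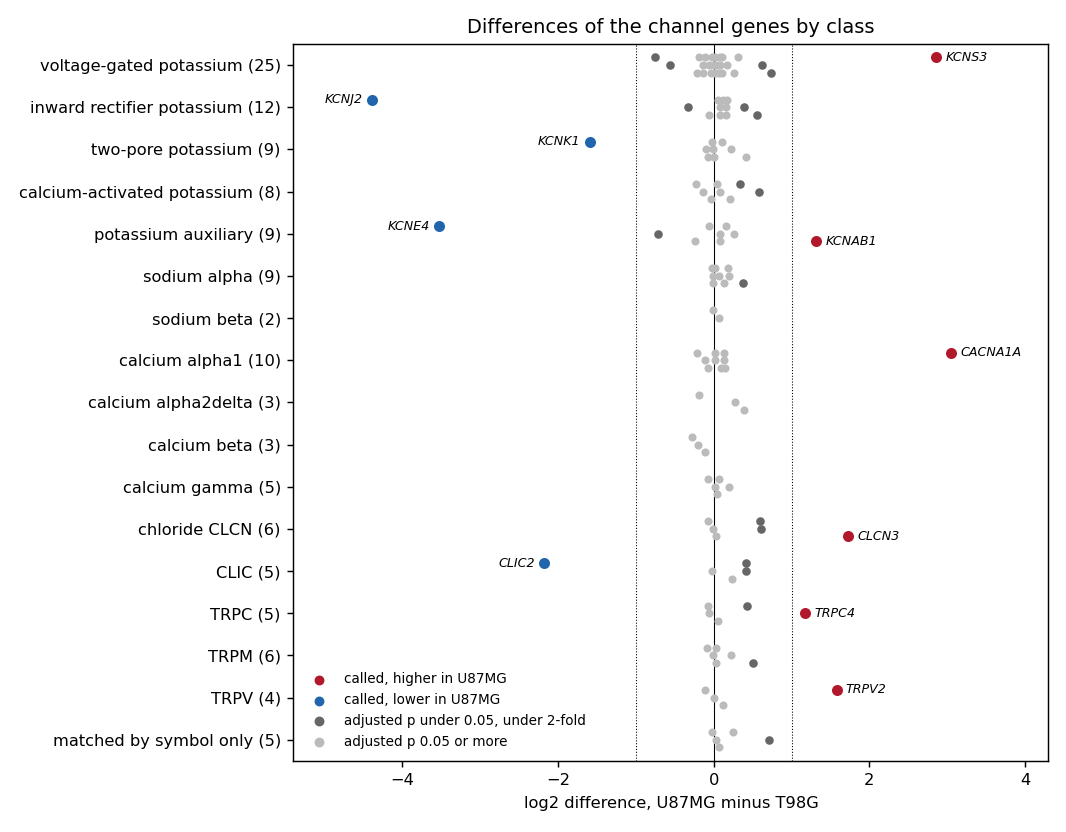
Log2 difference, U87MG minus T98G (horizontal axis), of the 126 genes by class, with the number of genes in brackets; dotted lines mark 2-fold. Red and blue points are genes called higher and lower in U87MG, dark grey points had an adjusted p under 0.05 without reaching 2-fold, and pale grey points had an adjusted p of at least 0.05. Called genes stand apart singly, and 105 of the 126 genes lie within 0.5 of 0.

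Tandem-pore-domain channels carry background potassium current, and 1 of their 9 genes was called (11.1%, against 13.6% of all genes). KCNK1 read 5.93, 5.84 and 6.08 in U87MG, against 7.66, 7.28 and 7.69 in T98G, a 3.02-fold lower level in U87MG (log2 -1.60, SE 0.13, limma adjusted p = 9.73e-06). Its other probe set had log2 -1.46 and was called as well. The other 8 genes of the class had an adjusted p of at least 0.05.

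None of 8 genes of calcium-activated potassium channels was called by limma, against 13.6% of all genes. Of the 8, 2 had both an unadjusted and an adjusted p under 0.05. KCNMA1, the pore subunit of the large-conductance channel that opens to calcium and voltage, read 11.43, 11.64 and 11.57 in U87MG, against 10.62, 11.01 and 11.25 in T98G. The lines did not overlap, and the difference was 0.58 (0.23 to 0.94, adjusted p = 0.0135). Its other probe sets had 0.57 and 0.25. KCNN4, the intermediate-conductance channel of the class, read 9.12 ± 0.06 in U87MG and 8.91 ± 0.09 in T98G (0.21, -0.01 to 0.44).

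No sodium channel gene was called, against 13.6% of all genes. Voltage-gated sodium channels carry the upstroke of the action potential, with SCN genes ending in A encoding the pore and those ending in B the beta subunits. All 11 genes lay under the series median in both lines, and differences ran from -0.02 to 0.38. SCN8A alone had an unadjusted and an adjusted p under 0.05 by limma, with 6.09, 6.14 and 5.67 in U87MG against 5.61, 5.63 and 5.53 in T98G (log2 0.38, 0.08 to 0.68, adjusted p = 0.0481). Its U87MG replicate 3 lay close to the T98G arrays. The adjusted p of SCN8A was 0.0907 to 0.166 with any array other than U87MG replicate 3 left out, 0.00216 without that array, 0.0615 with quantile normalization repeated and 0.0505 without multiply matching probe sets. SCN10A, the brightest of the family, read 6.02 ± 0.46 in U87MG and 5.83 ± 0.19 in T98G, and the beta subunit gene SCN2B had 0.07 (-0.18 to 0.32).

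Of 21 calcium channel genes, CACNA1A was the only one called (4.76%, against 13.6% of all genes). It encodes the pore subunit of the channel that carries P/Q-type calcium current, known from presynaptic terminals and cerebellar Purkinje cells. CACNA1A read 9.78, 10.08 and 9.77 in U87MG, against 7.03, 6.62 and 6.81 in T98G. It was 8.30-fold higher in U87MG, with no overlap (log2 3.05, SE 0.14, limma adjusted p = 1.15e-07). The 3 probe sets of CACNA1A agreed in direction but not in size, at log2 4.06, 3.05 and 0.57, the last of them not called.

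The other calcium channel subunits showed no call. Of the remaining 9 pore subunit genes, differences began at -0.22 and all had an adjusted p of at least 0.05 on the probe set that stands for the gene. Other probe sets differed: with all fitted singly, CACNA1G had -0.69 (limma adjusted p = 0.000481) and -0.56 (0.00334) on 2 of its 5 probe sets, and CACNA1C had -0.64 (0.00621) on 1 of 2, none of them called. The alpha2delta and beta subunits, which carry the pore to the membrane and set its gating, gave 0.39 (0.05 to 0.72, adjusted p = 0.0623) for CACNA2D1 and -0.28 (-0.55 to -0.0050, adjusted p = 0.0988) for CACNB3. The other probe set of CACNB3 had -0.38 (limma adjusted p = 0.0300), and the mean of both had an adjusted p of 0.0373. Among 5 gamma subunit genes CACNG1 had the smallest p, with 0.19 (-0.12 to 0.51). CACNG4, the brightest calcium channel gene, read 10.84 ± 0.21 in U87MG and 10.92 ± 0.04 in T98G. Its dimmer probe set had -0.51 (-0.80 to -0.21), so its probe sets differed in size.

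**Figure D3:**
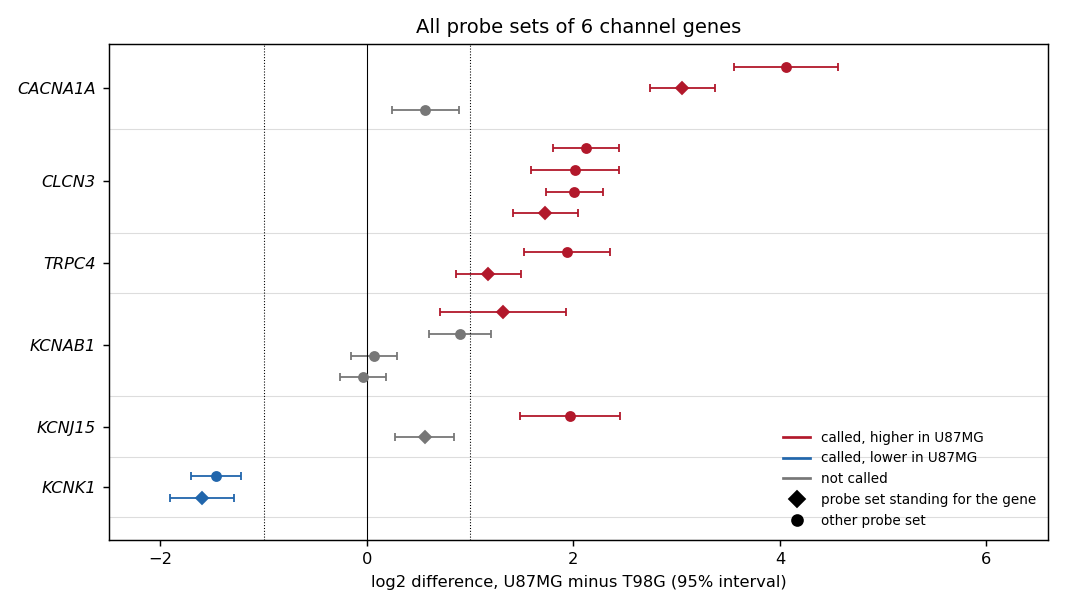
Log2 difference, U87MG minus T98G, with its 95% interval (horizontal axis) for every probe set of 6 channel genes with several probe sets; diamonds mark the probe set that stands for the gene and dotted lines 2-fold. All 4 probe sets of CLCN3 and both of TRPC4 and KCNK1 were called, against 2 of 3 for CACNA1A, 1 of 4 for KCNAB1 and 1 of 2 for KCNJ15.

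CLCN genes encode chloride channels of the plasma membrane and chloride-proton exchangers of endosomes and lysosomes. CLCN3, an endosomal exchanger, was the called member of 6 genes (16.7%, against 13.6% of all genes), on all of its 4 probe sets. It read 11.16, 11.19 and 10.92 in U87MG, against 9.43, 9.11 and 9.54 in T98G, a 3.31-fold higher level in U87MG (log2 1.73, SE 0.14, limma adjusted p = 6.72e-06). The other 3 had log2 2.01, 2.02 and 2.13. The close relatives CLCN4 and CLCN5 were higher short of 2-fold, at 0.59 (0.37 to 0.80) and 0.60 (0.23 to 0.98). The 4 probe sets of CLCN4 ran from 0.51 to 0.78. CLCN7, the lysosomal exchanger, read 9.99 ± 0.05 in U87MG and 10.00 ± 0.10 in T98G (-0.01, -0.24 to 0.21), with up to 0.65 on another probe set.

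CLIC proteins resemble glutathione transferases and occur both in soluble form and in membranes. CLIC2, which in vitro modulates calcium release through ryanodine receptors, read 4.82, 4.27 and 4.25 in U87MG, against 7.02, 6.21 and 6.64 in T98G. It was 4.52-fold lower in U87MG without overlap (log2 -2.18, SE 0.22, limma adjusted p = 3.30e-05). Both lines lay under the series median for CLIC2, and the U87MG readings were close to the control reading of 4.03. CLIC1 read 13.18 ± 0.10 in U87MG and 12.94 ± 0.04 in T98G (0.23, 0.01 to 0.46, adjusted p = 0.0903). CLIC4 had 0.42 (0.16 to 0.68) on its brightest probe set and -0.01 on another.

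Of 15 TRP channel genes, 2 were higher in U87MG and 0 lower (13.3% called, against 13.6% of all genes). TRPV2, a calcium-permeable channel of the vanilloid group, read 8.38, 8.34 and 8.44 in U87MG, against 6.95, 6.55 and 6.91 in T98G. It was 2.99-fold higher in U87MG without overlap (log2 1.58, SE 0.12, limma adjusted p = 6.49e-06). The single probe set of TRPV2 is of a kind that can match several transcripts. TRPC4, a cation channel opened downstream of phospholipase C, read 7.05, 7.28 and 7.09 in U87MG, against 5.81, 6.24 and 5.84 in T98G. It was 2.26-fold higher (log2 1.18, SE 0.14, limma adjusted p = 8.87e-05) and had log2 1.94 on its other probe set.

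The other TRP genes differed less. TRPM4, a calcium-activated channel for monovalent cations, had 0.51 (0.27 to 0.74, adjusted p = 0.00329). TRPC1, the brightest of the group, read 8.82 ± 0.20 in U87MG and 8.89 ± 0.16 in T98G (-0.07, -0.37 to 0.22). The adaptor gene TRPC4AP was higher short of 2-fold, at 10.36 ± 0.11 in U87MG and 9.65 ± 0.06 in T98G (0.71, 0.47 to 0.94). KCNQ1OT1 and KCNQ1DN, non-coding genes named after KCNQ1, had 0.07 (-0.18 to 0.33) and -0.02 (-0.27 to 0.23).

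Start-site sequences were compared as a feature that the choice of genes did not use. RefSeq windows of 300 bases around the gene start (build GRCh38.p14) were held for 97 of the 126 genes and 8 of the 10 called genes. Those with the largest differences are shown, KCNJ2 and CLIC2 lower in U87MG and CACNA1A and KCNS3 higher, each written from 5′ to 3′ on the strand of the gene as the table gives it. Capitals mark GGGCGG, the GC box, and TATAAA, the TATA box, on either strand.
KCNJ2 (chr17:70169282-70169581, plus strand): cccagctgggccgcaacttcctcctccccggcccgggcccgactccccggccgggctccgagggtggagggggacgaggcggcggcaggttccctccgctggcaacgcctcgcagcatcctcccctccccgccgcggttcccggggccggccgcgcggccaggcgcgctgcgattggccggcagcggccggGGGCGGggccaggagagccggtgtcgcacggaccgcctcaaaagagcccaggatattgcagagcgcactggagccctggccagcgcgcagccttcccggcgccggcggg
CLIC2 (chrX:155334565-155334864, minus strand): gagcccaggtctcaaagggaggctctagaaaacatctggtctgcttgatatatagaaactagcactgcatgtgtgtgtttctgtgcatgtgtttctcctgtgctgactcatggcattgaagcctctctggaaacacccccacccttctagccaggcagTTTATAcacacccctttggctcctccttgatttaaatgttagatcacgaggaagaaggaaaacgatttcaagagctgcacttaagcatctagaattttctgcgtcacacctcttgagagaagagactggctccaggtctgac
CACNA1A (chr19:13506430-13506729, minus strand): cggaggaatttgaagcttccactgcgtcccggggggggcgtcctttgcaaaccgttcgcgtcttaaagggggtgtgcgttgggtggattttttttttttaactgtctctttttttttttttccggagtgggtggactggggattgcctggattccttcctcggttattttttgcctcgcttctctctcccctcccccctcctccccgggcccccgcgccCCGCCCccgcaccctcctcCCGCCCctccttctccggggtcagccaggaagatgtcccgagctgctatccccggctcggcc
KCNS3 (chr2:17877597-17877896, plus strand): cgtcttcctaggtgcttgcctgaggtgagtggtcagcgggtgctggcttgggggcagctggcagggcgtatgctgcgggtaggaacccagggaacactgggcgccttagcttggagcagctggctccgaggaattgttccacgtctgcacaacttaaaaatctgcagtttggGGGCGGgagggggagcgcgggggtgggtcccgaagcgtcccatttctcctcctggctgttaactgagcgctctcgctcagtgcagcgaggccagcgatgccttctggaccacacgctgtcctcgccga
The windows of the 2 lower genes were unlike each other: KCNJ2 held 39 CpG dinucleotides and CLIC2 held 3, against a median of 14 over 35116 windows. CACNA1A held 21 and KCNS3 held 19. GGGCGG lay in 6 of the 8 windows of called genes, in 58 of the 97 channel genes (59.8%) and in 45.0% of all windows. TATAAA lay in 2 of the 8, those of CLIC2 and KCNK1, in 9 of the 97 (9.28%) and in 11.5% of all windows. A match describes letters only, and the start used in these cells was not measured.

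The genes next to the called channel genes were read from the order of measured genes in RefSeq, without regard to distance. Genes that were not measured may lie between them. Of 20 immediate neighbours 5 were called, against 13.6% of all genes, 4 in the direction of the channel gene and 1 in the other. CLCN3 lay beside CBR4, which was higher in U87MG (9.20 against 7.12), and KCNJ2 beside SOX9, which was lower (8.44 against 10.43). CACNA1A had IER2 at log2 1.10 on one side and YJU2B at 0.97 on the other. KCNE4 had SCG2 at -2.28 and PAX3 at -0.19, and TRPC4 had POSTN at -4.36, opposite to its own direction. The neighbours of KCNS3, KCNK1, KCNAB1, CLIC2 and TRPV2 included no called gene.

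Genes that work with these channels were read from 5 lists of 93 measured genes, of which 11 were higher in U87MG, 8 lower and 74 neither. Over all genes 6.56% were higher and 7.01% lower. The channel partners held most of the higher genes, as 7 of its 18 genes were higher, 1 was lower and 10 had no call, at a median log2 difference of 0.12. The median over all genes was -0.01. Of the channel partners 44.4% were called, against 13.6% of all genes. The lists were chosen with earlier results of these data known, so these shares are a description only. ANK2, an ankyrin that anchors channels and transporters to the cytoskeleton, read 8.40, 8.38 and 8.12 in U87MG, against 4.60, 4.23 and 4.44 in T98G. It was 14.7-fold higher in U87MG (log2 3.88, SE 0.13, limma adjusted p = 2.01e-08), though its 3 probe sets began at 0.17. AKAP9, a scaffold that binds the KCNQ1 channel, was 2.82-fold lower, with log2 -1.67 to -0.06 over 3 probe sets.

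The other 6 higher partners were chosen for mention after their values were seen. GEM and RRAD, small GTPases that inhibit voltage-gated calcium channels through the beta subunit, were higher in U87MG by 2.74-fold and 3.41-fold. REM1, of the same GTPase family, had -0.11 (-0.36 to 0.13, adjusted p = 0.484). STAC, an adaptor of calcium channels, was 2.77-fold higher. FGF13 and FGF12, intracellular partners of sodium channels, were 3.98-fold and at least 2.19-fold higher, FGF13 on a probe set that can match several transcripts, and the FGF12 call was lost without U87MG replicate 3 and on the mean of its probe sets. ABCC9, the sulphonylurea receptor that joins KCNJ8, was 3.87-fold higher, with log2 0.16 to 3.05 over 3 probe sets.

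**Figure D4:**
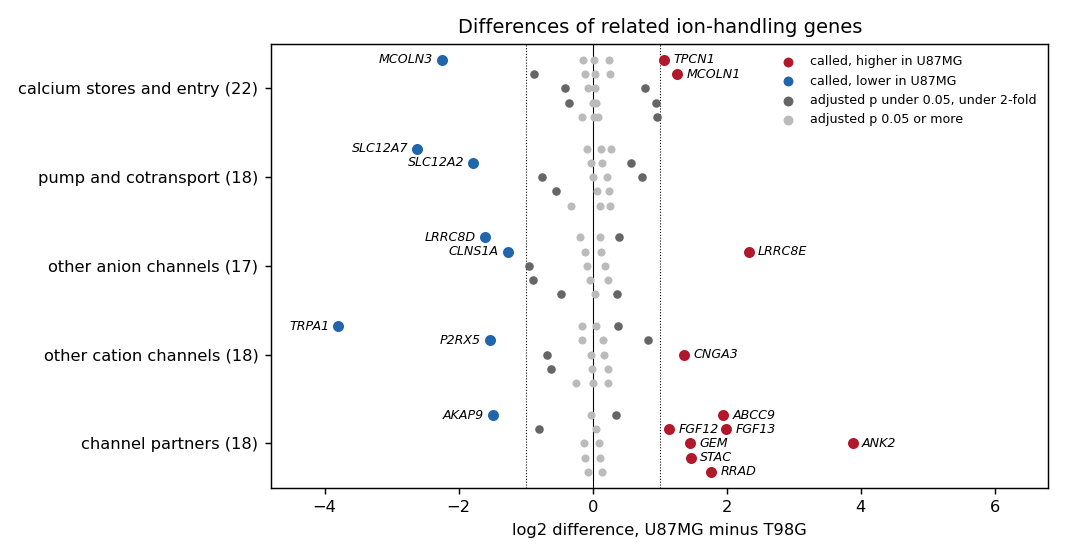
Log2 difference, U87MG minus T98G (horizontal axis), of 93 related ion-handling genes by list, with the number of genes in brackets; dotted lines mark 2-fold and colours are defined in the legend. The channel partners hold 7 of the 11 genes that were higher in U87MG, and TRPA1 and ANK2 lie farthest out in the lower and higher direction. The lists were chosen with earlier results of these data known.

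Among 18 other cation channel genes, 1 was higher and 2 lower in U87MG (16.7% called, against 13.6% of all genes). Their median difference was 0.00 on the log2 scale. TRPA1, the irritant-sensing channel whose symbol the rule does not take in, read 5.13, 5.34 and 5.39 in U87MG, against 9.21, 9.19 and 8.85 in T98G. It was 13.9-fold lower in U87MG (log2 -3.80, SE 0.13, limma adjusted p = 2.06e-08), with -0.41 on its other probe set. The called probe set can match several transcripts, and TRPA1 had no call when such probe sets were left out. CNGA3, a cyclic nucleotide-gated channel gene, was at least 2.21-fold higher, all 3 T98G arrays reading under 4.03. Of 17 other anion and large-pore channel genes, 1 was higher and 2 lower (17.6% called, median -0.04). LRRC8E and LRRC8D, subunits of the volume-regulated anion channel, went opposite ways. LRRC8E was 5.01-fold higher (9.68 ± 0.31 in U87MG against 7.36 ± 0.27 in T98G), and LRRC8D was 3.04-fold lower (9.36 ± 0.12 against 10.97 ± 0.05).

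Of 18 genes of the sodium-potassium pump and of cation-chloride cotransport, 0 were higher and 2 lower (11.1% called, against 13.6% of all genes, median 0.09). SLC12A7, which exports potassium with chloride, was 6.15-fold lower in U87MG (8.36 ± 0.83 against 10.98 ± 0.31), with 7.41 on replicate 1 against 8.77 and 8.90 on the other U87MG arrays. The other lower gene, named after its value was seen, was SLC12A2, which imports sodium, potassium and chloride, at 8.22 ± 0.37 in U87MG and 10.00 ± 0.09 in T98G. Of 22 genes of calcium stores and store-operated entry, 2 were higher and 1 lower (13.6% called, as over all genes, median 0.02). MCOLN1, a lysosomal cation channel, was 2.40-fold higher (10.17 ± 0.09 against 8.91 ± 0.02, on a probe set that can match several transcripts), and its relative MCOLN3 was 4.74-fold lower (5.33 ± 0.95 against 7.58 ± 0.10), with U87MG replicate 3 at 6.42 and the other U87MG arrays at 4.69 and 4.87.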

How the data were processed

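The authors deposited log2 expression values per probe set for 6 Affymetrix arrays. Per the submitters' processing notes the tools were RMA and limma; their versions are not given in the sources used here. The lowest value was 2.90 and the highest 14.9, and the medians of the arrays lay between 7.55 and 7.65. The number of arrays limits the precision. Gene names came from GEO's platform annotation of 2016, updated through Entrez identifiers (19052 of 19064 probe sets with 1 gene matched). Lines were compared over all 11963 genes by limma 3.58.1 in R 4.3.3 (lmFit, eBayes, two-sided, 4 residual degrees of freedom), and the steps were tested on simulated data. Where the dimmer line had arrays under 4.03, these were set to 4.03 and the fold is given as a lower bound. Such a bound allows for the control reading only, not for the spread between arrays. Probe sets ending in _x_at, _s_at or _a_at can match several transcripts. Among called channel genes such probe sets stood for TRPV2, TRPC4, CLCN3 and KCNAB1. Among called related genes they stood for FGF12, FGF13, RRAD, ABCC9, AKAP9, MCOLN1, TRPA1, CLNS1A and P2RX5.

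The members and lists were chosen with earlier results of these data known. Named genes were all called members, the smallest p in classes without a call, the brightest per family, the 3 uncalled genes nearest 2-fold, and the extreme called gene per direction of each list; other genes named were chosen after their values were seen. The 5 genes that are no channel subunits were set apart from the symbol classes. Alternatives were other thresholds, a filter on dim probe sets, other probe set choices, quantile normalization or centring applied again, a variance trend with intensity, a replicate block and each array left out.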

Additional observations from a re-analysis of the deposited data

How the results depend on the processing

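For the 25 named channel genes, 309 of 311 values under the alternatives kept the call and 0 reversed. Both exceptions were KCNAB1, at 0.56 on the mean of its probe sets and 0.98 without T98G replicate 3. Only 10 of the 25 genes were called. For the others a kept call means staying uncalled, even where the adjusted p crossed 0.05, as for SCN8A. Testing against a 1.5-fold minimum (limma treat) also lost KCNAB1, giving 5 higher and 4 lower channel genes, and lost FGF12 among related genes (10 higher, 9 lower). TRPC4 had log2 1.94 without multiply matching probe sets, a setting that left TRPV2 and KCNAB1 without a value and called KCNJ15. In that setting 9 related genes were higher and 6 lower, as MCOLN1, FGF13, CLNS1A and P2RX5 had no value, TRPA1 and FGF12 lost their calls, and ITPR1 and SCNN1A gained one. The channel genes numbered 5 to 6 higher and 4 lower in U87MG with each array left out, and the related genes 10 to 12 higher and 8 to 9 lower. Without a minimum fold the counts were 20 higher and 8 lower for channel genes, and 21 higher and 19 lower for related genes. The filter on dim probe sets kept 23 of 126 channel genes and left 4 higher and 2 lower (26.1%, against 18.8% of all genes over the same median). KCNAB1, TRPC4, CLIC2 and KCNK1 were not among the genes kept. CACNA1A, KCNS3, TRPV2, KCNJ2 and KCNE4 passed the filter only through the line in which they were higher. These shares are therefore a description and no test of the calls. With the replicate number as a block, 6 channel genes were higher and 4 lower, and 11 and 8 related genes. Deviations of same-numbered arrays correlated at 0.15, 0.07 and 0.04 across genes, and those of differently numbered arrays at -0.12 to 0.06. U87MG replicate 3 correlated better with T98G replicate 2 (0.06) than with T98G replicate 3 (0.04). Such small values from 3 arrays per line cannot decide whether the numbers pair the arrays. The number of arrays per line and signals near background limit what can be read for dim genes.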
